A study of Mus musculus with 10 samples.

Results

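Collagens and other genes of the extracellular matrix were followed through a set of mouse B cell arrays. The members were the genes whose name on the array begins with Col, a number, the letter a and a number, together with Dcn, Lum, Bgn, Fn1, Sparc, Postn, Fbn1 and Eln. The rule found 53 genes out of 27218 on the array, 45 by the collagen name and 8 by their own. Of the 45, Col4a3bp is not a collagen: its current symbol is Cert1, the gene of a ceramide transfer protein, which leaves 44 collagen chains.

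Collagens are secreted proteins whose chains wind around one another into a stiff triple helix, which needs glycine residues at short, regular steps along each chain. Fibril-forming chains build the ropes of connective tissue, type IV chains build the sheet under epithelia and vessels, and fibronectin, decorin and similar proteins bind cells and fibrils together. In bone marrow and lymph node this matrix is known mainly as a product of fibroblasts, reticular cells and endothelium, on which B cell precursors grow.

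RNA was measured on 10 one-colour arrays, 2 for each of 5 groups. The leukemias of mice 686, 713 and 760 were B cell acute lymphoblastic leukemias taken from lymph nodes of Ebf1+/- Pax5+/- (dHet) animals. The dHet pro-B cells carried the same heterozygous alleles and were Rag2-/- as well, and they grew out of c-Kit positive fetal liver cells on a layer of OP9 cells, a mouse stromal line, with 5 ng/ml IL-7, 10 ng/ml Flt3 ligand and 10 ng/ml SCF. The wt pro-B group (Ebf1+/+ Pax5+/+) was Fraction BC sorted from the bone marrow of control mice. Tissue, culture, Rag2 genotype and age of the cells thus differ between the groups along with the leukemia. The labels do not say that the 2 arrays of a group came from separate animals or cultures, so the p-values measure only the spread between these samples, which may be technical.

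Levels are log2 signals relative to the 75th percentile of the array, and a gene at 0 equals that percentile. A probe counts as detected where the scanner software marked it well above background. Each gene is represented by its brightest probe. Of 14 B lineage markers, 12 to 14 were detected on each of the 10 arrays. Between 35.7% and 52.4% of probes were detected on an array, the lowest on replicate 1 of leukemia 686, whose dimmest detected probe lay at -2.13, against -3.48 to -4.73 on the other 9 arrays. The leukemia arrays filled slides 1 and 2, and slide 3 held the 4 pro-B arrays. In every comparison of leukemias with pro-B cells, the slide and the kind of sample cannot be told apart. In these bulk samples fewer cells of a type and less RNA per cell cannot be told apart.

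Most of the matrix genes were undetected or too dim to test. Of the 53 members, 20 were detected on no array and 33 on at least 1. Detection on both arrays of a group was met by 22, and these 22 entered the tests with 14438 genes in all. Since they passed through the group where they were high, counts among them do not describe all members. Without Col4a3bp, both arrays detected 4 members in leukemia 686, 12 in leukemia 713, 6 in leukemia 760, 13 in dHet pro-B cells and 12 in wt pro-B cells. The genes detected on no array included Lum and Postn, a proteoglycan and an adhesive protein of fibroblasts, Eln and Fbn1, the elastin and fibrillin of elastic fibers, Col12a1 of tendon-type fibrils, and Col6a2 and Col6a3 of the beaded filaments of type VI collagen. The main probe of Col1a1, a chain of the bulk collagen of bone and skin, was also detected nowhere, and another of its probes was detected only on replicate 2 of leukemia 713, at -4.33.

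**Figure D1:**
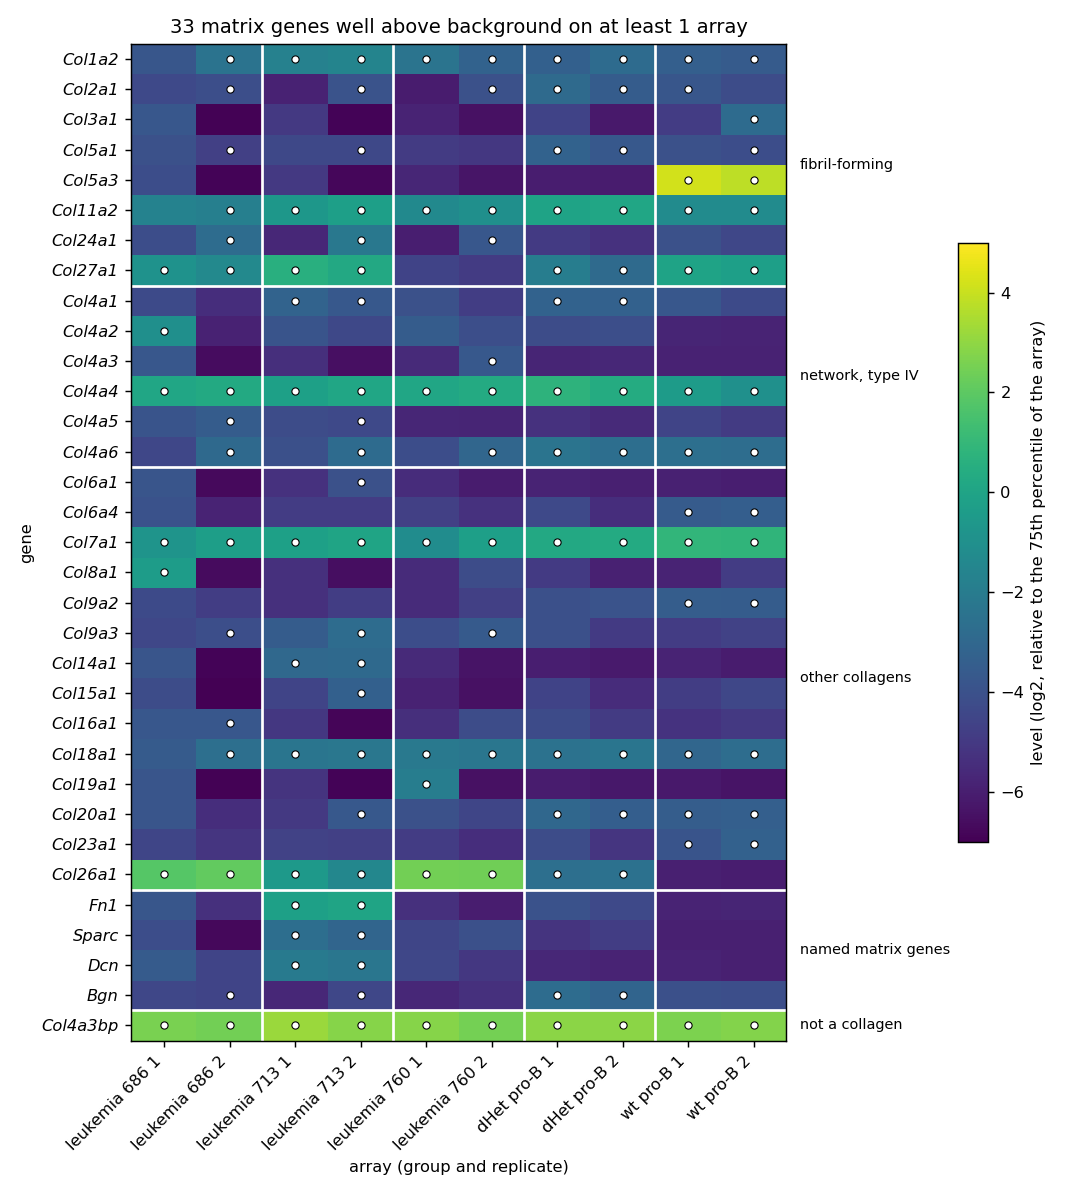
Level (colour, log2 relative to the 75th percentile of the array) of the 33 matrix genes detected on at least 1 array, with genes in rows by kind and the 10 arrays in columns by group. White dots mark arrays on which the probe was well above background: Col5a3 has dots only in wt pro-B cells, and Fn1, Dcn, Sparc and Col14a1 only in leukemia 713.

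The repeat of the triple helix can be read in some of the probes themselves. Of 87 probes for the 44 collagen genes, 3 hold a glycine codon (GGN) every 9 bases along their 60 bases. These 3 are also the only probes among 41174 on the array that do so (0.00729%, against 3.45% of collagen probes). They are shown because they carry the sequence pattern of the helix in Col5a3, Col5a1 and Col11a2, chains of the related type V and type XI fibrils that enter the results. Capitals mark the glycine codons, read 5′ to 3′ as the array files give the probes. On mm9 they lie on chr9:20590066-20590795, minus strand (Col5a3), chr2:27842243-27844666, plus strand (Col5a1), and chr17:34189287-34189453, plus strand (Col11a2). Each of these genomic stretches is longer than the probe matched to it.
Col5a3: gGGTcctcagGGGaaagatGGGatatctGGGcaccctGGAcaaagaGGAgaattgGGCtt
Col5a1: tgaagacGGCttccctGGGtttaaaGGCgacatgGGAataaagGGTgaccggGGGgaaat
Col11a2: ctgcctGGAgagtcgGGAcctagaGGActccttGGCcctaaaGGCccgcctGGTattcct

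Against wt pro-B cells, the leukemias lacked the signal of Col5a3, carried that of Col26a1, and were lower in Col7a1. Among the 22 tested members, 3 were higher in the leukemias and 8 lower, where 31.3% of all tested genes were higher and 27.5% lower. The median change was -0.36 over the members and 0.06 over all genes tested. With arrays scaled on their median the split was 5 higher and 4 lower, and scaled on the probes that all arrays detected it was 1 higher and 10 lower. The median over all genes was 0.63 under the first of these scalings and -0.30 under the second.

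Col5a3 is the alpha 3 chain of type V collagen, a fibril-forming collagen that is built in small amounts into the fibrils of other types. Its main probe (chr9:20574592-20574651, minus strand, mm9) read -4.15 and -6.87 in leukemia 686, -4.99 and -6.78 in leukemia 713, and -5.71 and -6.30 in leukemia 760. It read -6.02 and -6.10 in dHet pro-B cells, against 4.20 and 3.80 in wt pro-B cells. Only the 2 wt pro-B arrays detected it, and no other array came near them. Where one side was undetected, a fold is a lower bound, set against the dimmest detected level of the undetected arrays. By this bound Col5a3 was at least 231-fold lower in the leukemias (-9.80 ± 0.21 on the log2 scale with its SE, limma adjusted p = 0.000157) and at least 266-fold lower in dHet pro-B cells (limma adjusted p = 0.000311). The helix probe printed above was likewise detected only in wt pro-B cells, at -2.83 and -3.36, and was lower in the leukemias by a log2 change of -2.28 ± 0.31 (limma adjusted p = 0.00177). Its change in dHet pro-B cells was -2.48 ± 1.104 and did not pass (limma adjusted p = 0.144). Both main-probe calls stood under every one of the alternatives run.

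Col26a1 encodes the chain of type XXVI collagen, a small secreted collagen with an EMI domain first found in testis and ovary. Its probe (chr5:137217650-137217709, minus strand) read 1.82 and 2.10 in leukemia 686, -0.51 and -1.43 in leukemia 713, and 2.44 and 2.41 in leukemia 760. It read -2.63 and -2.54 in dHet pro-B cells and was undetected in wt pro-B cells, at -5.95 and -6.03. The 3 kinds of sample did not overlap: every leukemia array was above the dHet pro-B arrays, and these were above the wt pro-B arrays. Against wt pro-B cells the leukemias were at least 38.0-fold higher (limma adjusted p = 0.00213), and dHet pro-B cells were at least 2.88-fold higher (limma adjusted p = 0.000261). With a normexp background and in the authors' deposited value table the dHet pro-B difference did not pass, at 0.43 and 0.41.

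Col7a1 encodes the collagen of the anchoring fibrils that hold skin to its basement membrane. It was detected on all 10 arrays, at -0.77 and -0.26 in leukemia 686, -0.16 and 0.01 in leukemia 713, -1.15 and -0.23 in leukemia 760, 0.26 and 0.35 in dHet pro-B cells, and 0.89 and 0.85 in wt pro-B cells. All 6 leukemia arrays lay below all 4 pro-B arrays. The change was -1.30 ± 0.20 against wt pro-B cells (limma adjusted p = 0.00314), where it passed in every alternative run.

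Col4a4 is a chain of the type IV network known from the kidney glomerulus, where it assembles with Col4a3 and Col4a5. It read 0.12 and 0.27 in leukemia 686, -0.16 and 0.12 in leukemia 713, 0.10 and 0.32 in leukemia 760, 0.77 and 0.38 in dHet pro-B cells, and -0.43 and -0.96 in wt pro-B cells. The wt pro-B arrays were the lowest, without overlap. Its other probe was not detected on both arrays of any group and was not fitted. The leukemias were higher in Col4a4 by 0.82 ± 0.22 (limma adjusted p = 0.0207). Of 27 alternatives, 5 lost this call, and the change ranged from 0.456 to 1.387 over all of them. The losses included the fits without replicate 2 of wt pro-B (0.56) and without leukemia 686 (adjusted p = 0.0533). Its partner chains were not tested: Col4a3 was detected on 1 array and Col4a5 on 2, all of them leukemias.

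The remaining calls against wt pro-B cells lay near background. Dcn, decorin, was the third higher gene at 2.22 ± 0.72 (limma adjusted p = 0.0402, at least 1.37-fold), and both arrays that detected it were from leukemia 713. Col9a2 and Col20a1, collagens that sit on the surface of fibrils, Col6a4, a type VI-like chain, and Col23a1, a collagen anchored in the cell membrane, were lower. Col9a2, Col6a4 and Col23a1 were detected only in wt pro-B cells, and the bounds were no more than 1.22 to 1.29-fold. Col4a6, a type IV chain of smooth muscle basement membranes, changed by -0.92 ± 0.15 (limma adjusted p = 0.00349). It was detected on all 3 leukemia arrays of slide 2, at -2.90, -2.78 and -3.04, and on none of slide 1, at -4.45, -4.07 and -4.18, against -2.60 and -2.71 in wt pro-B cells. Using only the arrays scanned on the second day, which holds slides 2 and 3, its change was -0.25 and did not pass (adjusted p = 0.197). Bgn, biglycan, counted as lower although no wt pro-B array and 2 of 6 leukemia arrays detected it, and its sign turned to 0.33 with undetected spots set to the lowest detected level.

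**Figure D2:**
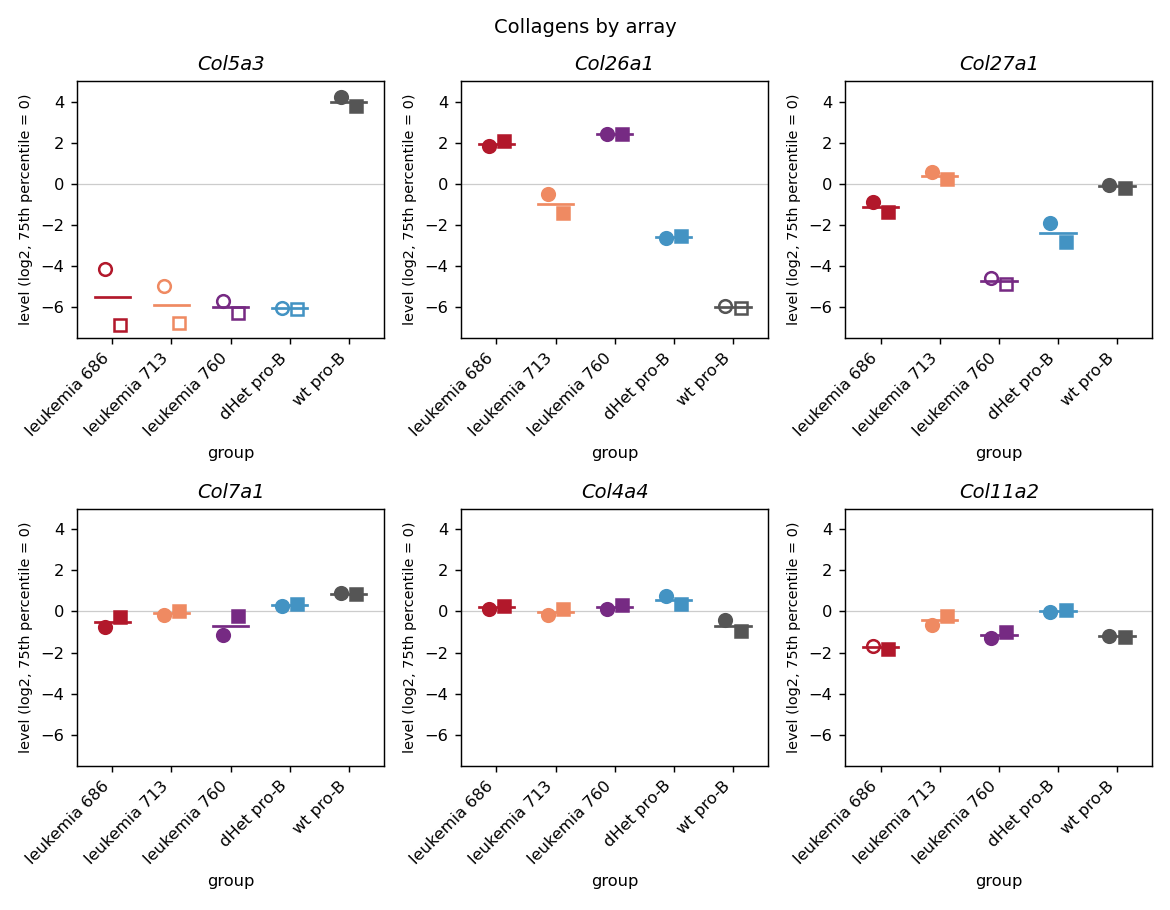
Level (log2, 75th percentile of the array = 0) of 6 collagens on each array, with leukemias, dHet pro-B and wt pro-B cells along the axis. Circles are replicate 1 and squares replicate 2, filled where the probe was well above background, and lines are group means: Col5a3 stands at 4.20 and 3.80 in wt pro-B cells only, Col26a1 is highest in leukemias 760 and 686, and Col27a1 is undetected in leukemia 760.

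The comparison of leukemias with dHet pro-B cells sets lymph node tumors, whose tissue holds matrix-producing cells, against cells that shared a dish with stromal feeders. The leukemias were higher in Col26a1 and lower in several dim collagens and in Bgn. Of the 22 tested members 1 was higher and 8 lower, where 21.7% of all tested genes were higher and 24.4% lower. The median change was -0.19 over the members and -0.06 over all genes. Scaling on the array median gave 2 higher and 6 lower, as did quantile normalization.

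Against dHet pro-B cells, Col26a1 was 13.2-fold higher in the leukemias (3.72 ± 1.00, limma adjusted p = 0.0275). This call did not stand without either dHet pro-B array (adjusted p = 0.122 and 0.114), either wt pro-B array (0.0571), replicate 1 of leukemia 713 (0.0534) or leukemia 686 (0.0722), while the change stayed between 2.20 and 4.78 over all alternatives. Col7a1 fell by 0.73 ± 0.20 (limma adjusted p = 0.0305), and 13 of 27 alternatives lost the call, with adjusted p-values up to 0.196. The 13 members that did not pass included Col1a2, Col18a1, Col4a1, Col4a4 and Fn1.

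Col11a2, a chain of the thin fibrils of cartilage, read -1.68 and -1.82 in leukemia 686, -0.64 and -0.23 in leukemia 713, -1.29 and -1.003 in leukemia 760, -0.02 and 0.10 in dHet pro-B cells, and -1.20 and -1.22 in wt pro-B cells. The dHet pro-B arrays were the highest of the 10. The leukemias were lower by a change of -1.15 ± 0.37 (limma adjusted p = 0.0485), which 17 of 27 alternatives lost, with adjusted p-values up to 0.187. Its helix probe, printed above, was detected on both dHet pro-B arrays, at -3.99 and -4.03, and on replicate 2 of leukemia 713, at -4.68, and its change was -1.25 ± 0.31 (limma adjusted p = 0.0217).

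Bgn is the gene of biglycan, a small proteoglycan that decorates collagen fibrils and is made in quantity by stromal cells. It read -4.46 and -4.55 in leukemia 686, -5.68 and -4.46 in leukemia 713, -5.67 and -5.34 in leukemia 760, -2.75 and -3.12 in dHet pro-B cells, and -4.05 and -4.10 in wt pro-B cells. It was detected on both dHet pro-B arrays and on 2 leukemia arrays. The leukemias were lower, with a change of -2.09 ± 0.31 (limma adjusted p = 0.00401). With undetected spots at the lowest detected level of their array the difference was -0.84. Bgn was at least 2.19-fold higher in dHet than in wt pro-B cells, a difference that did not pass (1.14 ± 0.38, limma adjusted p = 0.0563), and its other probe was not detected in dHet pro-B cells.

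Col2a1, Col5a1, Col20a1 and Col4a6 were detected on both dHet pro-B arrays and on 3, 2, 1 and 3 of the 6 leukemia arrays. They fell by 1.56 ± 0.34, 1.14 ± 0.25, 1.21 ± 0.18 and 1.05 ± 0.15 (limma adjusted p from 0.00362 to 0.0144). With undetected spots at the lowest detected level these differences shrank to between -0.49 and -0.34. Col5a1, the major chain of type V collagen and the gene of the second helix probe above, read -3.21 and -3.70 in dHet pro-B cells, against -4.04 and -4.14 in wt pro-B cells, 1 of them detected. Col9a2 was also called lower, but neither leukemia nor dHet pro-B arrays detected it, so no fold is given.

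**Figure D3:**
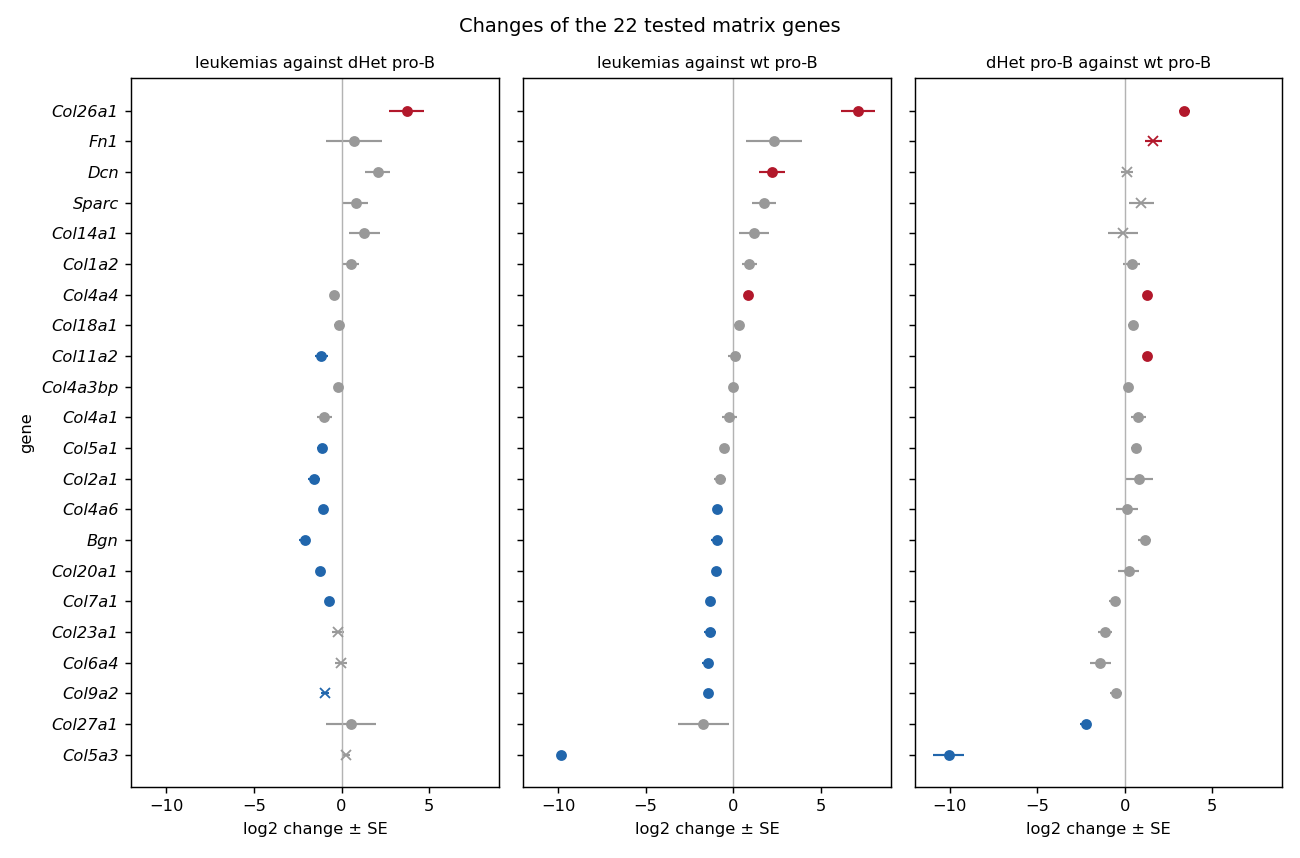
Log2 change with its SE for the 22 tested matrix genes in leukemias against dHet pro-B, leukemias against wt pro-B and dHet pro-B against wt pro-B, sorted by the middle comparison. Red and blue mark adjusted p-values below 0.05 for higher and lower, grey the rest, and crosses genes detected on no array of either side: Col5a3 lies near -10 against wt pro-B cells in both comparisons and Col26a1 is to the right in all 3.

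Between the cultured dHet pro-B cells and the sorted wt pro-B cells, which differ in tissue, age, culture and Rag2 as well as in the 2 alleles, 5 collagens passed the test on detected signal. Col26a1, Col4a4 and Col11a2 were higher in dHet pro-B cells, and Col5a3 and Col27a1 were lower. Of the 22 tested members, 4 were higher and 2 lower, where 16.7% of all tested genes were higher and 14.8% lower. The median change was 0.30 over the members and 0.13 over all genes. Scaling on the probes that all arrays detected gave 3 higher and 3 lower, and quantile normalization 4 and 3.

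Col4a4 was higher in dHet pro-B cells by 1.27 ± 0.25 (limma adjusted p = 0.00802) and Col11a2 by 1.25 ± 0.20 (limma adjusted p = 0.00367), with no overlap of the arrays in either gene. The helix probe of Col11a2 did not pass here (0.70 ± 0.46, limma adjusted p = 0.315). Of 23 alternatives, 2 lost the Col11a2 call. The Col4a4 call was lost in 3 of 23 alternatives, and its change ranged from 0.934 to 1.625 over all of them. The losses included the fits without replicate 1 of dHet pro-B (1.08) and without replicate 2 of wt pro-B (1.01). The fourth higher call, Fn1, had no detected array in either group, so no fold is given.

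Col27a1 encodes a fibril-forming chain of cartilage. It read -0.88 and -1.37 in leukemia 686, 0.55 and 0.23 in leukemia 713, -4.60 and -4.90 in leukemia 760, -1.91 and -2.84 in dHet pro-B cells, and -0.04 and -0.21 in wt pro-B cells. Both dHet pro-B arrays were below both wt pro-B arrays, with a change of -2.24 ± 0.34 (limma adjusted p = 0.00276). Of its 2 other probes, one gave -2.55 ± 0.48 (limma adjusted p = 0.00829) and the other -1.63 ± 0.64 (limma adjusted p = 0.104). The leukemias as a set did not pass against either pro-B group (limma adjusted p = 0.775 and 0.35). Leukemia 760 had no detected array, and both arrays of leukemia 713 exceeded the wt pro-B arrays.

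Few genes of fibroblast-type matrix were detected in the dHet pro-B cells grown on feeders. In a set of 17 members grouped after the values were seen (Col1a1, Col1a2, Col3a1, Col5a2, Col6a1, Col6a2, Col6a3, Col12a1, Col14a1, Fn1, Sparc, Postn, Dcn, Lum, Bgn, Fbn1 and Eln), both dHet pro-B arrays detected 2, Col1a2 and Bgn. Both wt pro-B arrays, which had no feeder, detected 1, Col1a2. The set holds the type V chain Col5a2 but not Col5a1. Col5a1 was detected on both dHet pro-B arrays, at -3.21 and -3.70, and on replicate 2 alone of wt pro-B, at -4.14. Col1a2, the second chain of type I collagen, read -3.31 and -2.81 in dHet pro-B cells, against -3.34 and -3.55 in wt pro-B cells. It read -3.80 and -2.42 in leukemia 686, -1.73 and -1.60 in leukemia 713, and -2.37 and -3.20 in leukemia 760. The dHet and wt pro-B values differed by 0.39 ± 0.47, which did not pass (limma adjusted p = 0.583).

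Other products of mesenchymal cells gave a mixed record in the same arrays. Of 20 mesenchymal markers, 11 were detected on no array, among them Pdgfra, Pdgfrb, Cxcl12 and Lepr, and both dHet pro-B arrays detected 5 and both wt pro-B arrays 6. The summed level of the list was 36.8 and 34.6 in dHet pro-B cells, against 37.7 and 42.8 in wt pro-B cells. Acta2 and Cdh11, smooth muscle actin and a cadherin, were detected on all 10 arrays and made up most of these sums. Their means were 4.79 and 2.77 in dHet pro-B cells and 4.84 and 3.01 in wt pro-B cells. The sums therefore tell little about the other markers of the list. Vcam1, an adhesion molecule, and Runx2, a factor of bone-forming cells, were undetected in dHet pro-B cells and at least 25.9-fold and 9.03-fold lower there than in wt pro-B cells (changes of -6.55 ± 0.34 and -5.11 ± 0.26, limma adjusted p = 3.36e-05 and 3.07e-05). All 6 tested neutrophil markers and all 8 tested macrophage markers were lower there too, where 14.8% of all tested genes were lower. The macrophage marker Mrc1, counted here, was detected on no pro-B array. Its difference was 0.006 with undetected spots at the lowest detected level. The summed level of the neutrophil list was 0.691 and 0.355 in dHet pro-B cells, against 64.75 and 132.3 in wt pro-B cells. The part of such cells in the Vcam1 and Runx2 values was not tested. In the other direction, Loxl2, Fbln1, Fstl1 and Thbs3 of the matrix and mesenchymal lists were detected on both dHet pro-B arrays, on no wt pro-B array and on at most 1 leukemia array, and were picked after their values were seen. Fbln1, fibulin of elastic fibers and basement membranes, read -2.37 and -1.93 in dHet pro-B cells, against -6.10 and -6.16 in wt pro-B cells, at least 3.89-fold higher (limma adjusted p = 0.00824). Loxl2, an enzyme that cross-links collagen, was at least 12.3-fold higher (limma adjusted p = 0.0345), but its 2 dHet pro-B arrays stood far apart, at -2.86 and 1.88. Fstl1, a secreted glycoprotein, read -2.49 and -3.17 in dHet pro-B cells, against -5.24 and -5.14 in wt pro-B cells, and did not pass (limma adjusted p = 0.116). Thbs3, a thrombospondin, read -3.61 and -3.21 in dHet pro-B cells, against -3.94 and -3.995 in wt pro-B cells, and did not pass either (limma adjusted p = 0.317). The part that feeder RNA has in these values was not tested.

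**Figure D4:**
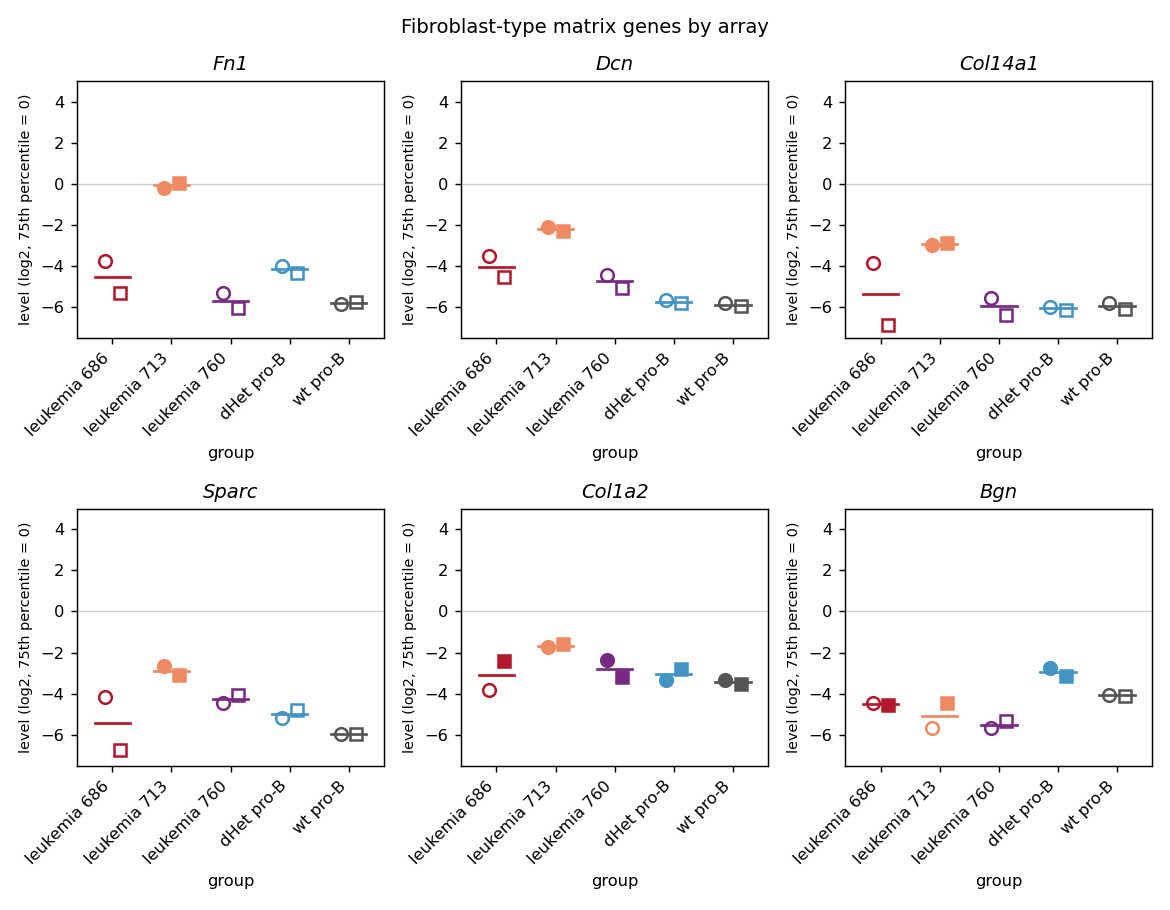
Level (log2, 75th percentile of the array = 0) of 6 fibroblast-type matrix genes on each array, by group, with circles for replicate 1, squares for replicate 2, filled symbols where the probe was well above background and lines at group means. Fn1, Dcn, Col14a1 and Sparc are filled in leukemia 713 alone, and Bgn is filled on both arrays only in dHet pro-B cells.

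The 3 leukemias differed from one another in their matrix genes, and leukemia 713 stood out with fibronectin and decorin. These comparisons rest on 2 arrays of a mouse, so their p-values measure the spread between arrays and not between animals. In leukemia 713, of the 22 tested members 5 were higher than the mean of 686 and 760 and 1 was lower, where 8.88% of all tested genes were higher and 6.48% lower. Among the higher members, the main probes of Fn1, Dcn and Col14a1 were detected in leukemia 713 alone, so these genes entered the tests through it. The count therefore does not describe all members. The median change was 0.34 over the members and 0.00 over all genes. In leukemia 760, 1 was higher and 3 lower (5.34% and 6.63% of all genes), and in leukemia 686, 1 was higher and 1 lower (1.74% and 2.53% of all genes). Scaling on the array median gave 0 higher and 3 lower in leukemia 686. The arrays of the leukemias shared slides by replicate number, and same-numbered arrays deviated together. With the slide as a random block or the scan day as a block, 9 members were higher in leukemia 713 and 1 lower, and 4 or 3 were lower in leukemia 686.

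Fn1 encodes fibronectin, the adhesive glycoprotein that integrins of many cells bind. Its main probe (chr1:71637422-71639659, minus strand, mm9) is printed because leukemia 713 turns on it.
Fn1: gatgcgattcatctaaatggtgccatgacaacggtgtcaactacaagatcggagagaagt

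Fn1 read -0.19 and 0.03 in leukemia 713, against -3.77 and -5.32 in leukemia 686 and -5.34 and -6.06 in leukemia 760, with -4.00 and -4.34 in dHet pro-B and -5.83 and -5.74 in wt pro-B cells. Only leukemia 713 had detected arrays. The difference was at least 12.5-fold (5.04 ± 0.42, limma adjusted p = 0.000693), and on the separate slides it was 4.37 and 5.72. A second probe, at -2.23 and -1.61 in leukemia 713 and undetected elsewhere, gave 4.11 ± 0.70 (limma adjusted p = 0.0103).

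Dcn, decorin, a proteoglycan of connective tissue that binds collagen fibrils, read -2.09 and -2.30 in leukemia 713, against -3.53 and -4.52 in leukemia 686 and -4.45 and -5.05 in leukemia 760. Its main probe was undetected outside leukemia 713, also in dHet pro-B (-5.68 and -5.79) and wt pro-B cells (-5.80 and -5.95), and its other probe was not detected on both arrays of any group. The difference was at least 2.79-fold (2.20 ± 0.30, limma adjusted p = 0.00338). The main probe of Col14a1, a collagen that lies along fibrils, read -2.96 and -2.90 in leukemia 713 and was detected on no other array, at least 1.73-fold higher (2.73 ± 0.73, limma adjusted p = 0.0471). Another probe of Col14a1 was detected on replicate 2 of wt pro-B alone, at -1.04, and not in leukemia 713. Leaving out either array of leukemia 713 or of 760, or any pro-B array, ended the Col14a1 call, with adjusted p from 0.0737 to 0.191. With undetected spots at the lowest detected level, neither Dcn (adjusted p = 0.189) nor Col14a1 (0.544) passed.

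Other members were detected in leukemia 713 without a passed test. Sparc, a secreted protein that binds collagen and calcium, was detected there alone by its main probe, at -2.68 and -3.09 (limma adjusted p = 0.081). Col1a2 had its highest levels of the 10 arrays in leukemia 713 (1.29 ± 0.41, limma adjusted p = 0.0831). On slides 1 and 2 apart, Sparc gave 1.63 and 2.31 and Col1a2 1.36 and 1.21. Col6a1, of type VI filaments, and Col15a1, of the zone next to basement membranes, were detected on replicate 2 of leukemia 713 alone, at -4.04 and -3.31, and were not tested. Of the 17 fibroblast-type members, both arrays of leukemia 713 detected 5, against 0 in leukemia 686 and 1 in leukemia 760. That set was grouped after the values were seen. The 5 are Fn1, Dcn, Col14a1, Sparc and Col1a2, so the count only restates them. On replicate 1 of leukemia 686 the dimmest detected probe lay at -2.13, above the leukemia 713 levels of Col14a1 and Sparc. Replicate 2 of leukemia 686 detected Col1a2, at -2.42.

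Collagens of other kinds also differed between the leukemias. Col27a1 was at least 12.6-fold lower in leukemia 760 than in the others (-4.38 ± 0.29, limma adjusted p = 0.000313) and higher in leukemia 713 (3.33 ± 0.29, limma adjusted p = 0.000814). Its other probes gave -3.10 and -3.16 in leukemia 760 and 2.85 and 2.83 in leukemia 713, all 4 past the threshold. Col26a1 was lower in leukemia 713 (-3.16 ± 0.25, limma adjusted p = 0.000616), higher in leukemia 760 (1.93 ± 0.25, limma adjusted p = 0.00344) and higher in leukemia 686 (1.23 ± 0.25, limma adjusted p = 0.0443), whose arrays lie between those of the other mice. The last call was lost without either array of 686 or of 760, or any pro-B array, with adjusted p from 0.0911 to 0.118. Col11a2 was higher in leukemia 713 (1.01 ± 0.17, limma adjusted p = 0.00861) and lower in leukemia 686 (-0.96 ± 0.17, limma adjusted p = 0.0296), although its helix probe did not pass in either. Leaving out replicate 2 of leukemia 713 ended the first of these calls (adjusted p = 0.0622), and leaving out any one of 8 arrays ended the second. On slide 1 and slide 2 apart, Col27a1 gave -4.43 and -4.33 in leukemia 760 and 3.29 and 3.36 in leukemia 713, and Col26a1 gave -2.64 and -3.68 in leukemia 713, 1.79 and 2.08 in leukemia 760 and 0.85 and 1.60 in leukemia 686. Col11a2 gave 0.84 and 1.18 in leukemia 713 and -0.71 and -1.21 in leukemia 686. Fn1 and Dcn were the other lower calls in leukemia 760 (limma adjusted p = 0.00276 and 0.0133), against a mean that holds leukemia 713. No fold is given for them, since that mean also holds undetected readings of leukemia 686. With normexp background correction, Col26a1 in leukemia 713 was the one call that still passed among those of single leukemias (-2.50, limma adjusted p = 0.0175), and Fn1 there gave 1.81 (limma adjusted p = 0.307).

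Markers of some other cells were higher in leukemia 713, and those of others were not. Of 12 macrophage markers 8 were tested, of which 6 were higher there and 1 lower (8.88% and 6.48% of all tested genes), with a summed level of 7.07 and 7.19 in leukemia 713, against 4.64 and 3.67 in leukemia 686 and 1.97 and 1.99 in leukemia 760. The dHet pro-B arrays had 0.389 and 0.336 and the wt pro-B arrays 2.58 and 3.22. The macrophage marker that was lower was Adgre1, with means of -1.95, -6.11 and -5.22 in leukemias 686, 713 and 760. Of 6 lymph node reticular markers, Ccl19 and Ccl21a, chemokines of lymph node stroma, were higher in leukemia 713 (1.37 ± 0.19 and 2.77 ± 0.41, limma adjusted p = 0.00334 and 0.00465). The summed level of that list was 1.52 and 1.11 in leukemia 713, against 0.706 and 0.521 in leukemia 686 and 0.330 and 0.244 in leukemia 760, while dHet pro-B arrays had 0.159 and 0.123 and wt pro-B arrays 0.116 and 0.0904. The macrophage and reticular sums were thus highest on the arrays of leukemia 713. In the reticular list Pdpn, Grem1 and Madcam1 were detected on no array. The endothelial sum, which was lower in leukemia 713 than on the same slide in the other leukemias, was 42.7 and 22.7 in leukemia 713, against 111.5 and 81.6 in leukemia 686 and 65.9 and 37.9 in leukemia 760. Most of it was Egfl7, with means of 6.49, 4.48 and 5.43 in leukemias 686, 713 and 760. Of 7 tested endothelial markers 1 was lower in leukemia 713 and 0 were higher, with a median change of 0.22. The erythroid sum was 87.7 and 54.9 in leukemia 713, against 6.20 and 1.13 in leukemia 686 and 30.7 and 16.7 in leukemia 760. Of 6 tested neutrophil markers 0 were higher in leukemia 713 and 3 lower. Their list summed to 3.42 and 1.07 there, against 20.5 and 28.8 in leukemia 686 and 1.02 and 0.355 in leukemia 760. Of 6 tested T cell markers 1 was higher and 1 lower, and the T cell sums were highest in leukemia 760, at 65.3 and 46.1. Of 4 osteoblast markers 2 were tested, Alpl and Bglap, and both were higher in leukemia 713 (2.69 ± 0.37 and 1.19 ± 0.27, limma adjusted p = 0.00337 and 0.0279). That list summed to 6.96 and 14.3 in leukemia 713, against 1.31 and 1.79 in leukemia 686 and 1.48 and 2.33 in leukemia 760, with 3.97 and 3.64 in dHet pro-B and 0.764 and 0.859 in wt pro-B cells. Among mesenchymal markers Runx2 and Vcam1 were higher in leukemia 713 (2.26 ± 0.22 and 1.74 ± 0.29, limma adjusted p = 0.00115 and 0.00823), and Pdgfra and Pdgfrb were detected on no array. The sums of the mesenchymal list, again mostly Acta2, were 25.3 and 54.9 in leukemia 713, against 23.9 and 44.7 in leukemia 686 and 21.7 and 34.5 in leukemia 760. The part of these cells in the Fn1 and Dcn signal was not tested.

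Summed over the 52 members other than Col4a3bp, undetected spots included, the linear level was 10.52 and 8.49 in leukemia 686, 7.89 and 7.96 in leukemia 713, 9.36 and 9.53 in leukemia 760, 6.62 and 5.93 in dHet pro-B cells, and 24.2 and 19.5 in wt pro-B cells. The wt pro-B sum stood apart through Col5a3. Without Col5a3 alone the sums were 10.46 and 8.48 in leukemia 686, 7.86 and 7.95 in leukemia 713, and 9.34 and 9.51 in leukemia 760. Leukemia 713 was the lowest of the leukemias by this sum. Without Col5a3 and Col26a1 the sums were 6.93 and 4.21 in leukemia 686, 7.16 and 7.58 in leukemia 713, 3.91 and 4.19 in leukemia 760, 6.44 and 5.75 in dHet pro-B cells, and 5.82 and 5.56 in wt pro-B cells. Over detected spots alone these were 3.48 and 3.70 in leukemia 686, 5.90 and 7.16 in leukemia 713, 2.61 and 3.33 in leukemia 760, 5.26 and 4.76 in dHet pro-B cells, and 4.79 and 4.59 in wt pro-B cells. Both arrays of leukemia 713 were above the other 8 by either sum only when Col26a1, lowest in leukemia 713 among the leukemias, was left out too. Replicate 1 of leukemia 686 was 6.93 with undetected spots and 3.48 without them.

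**Figure D5:**
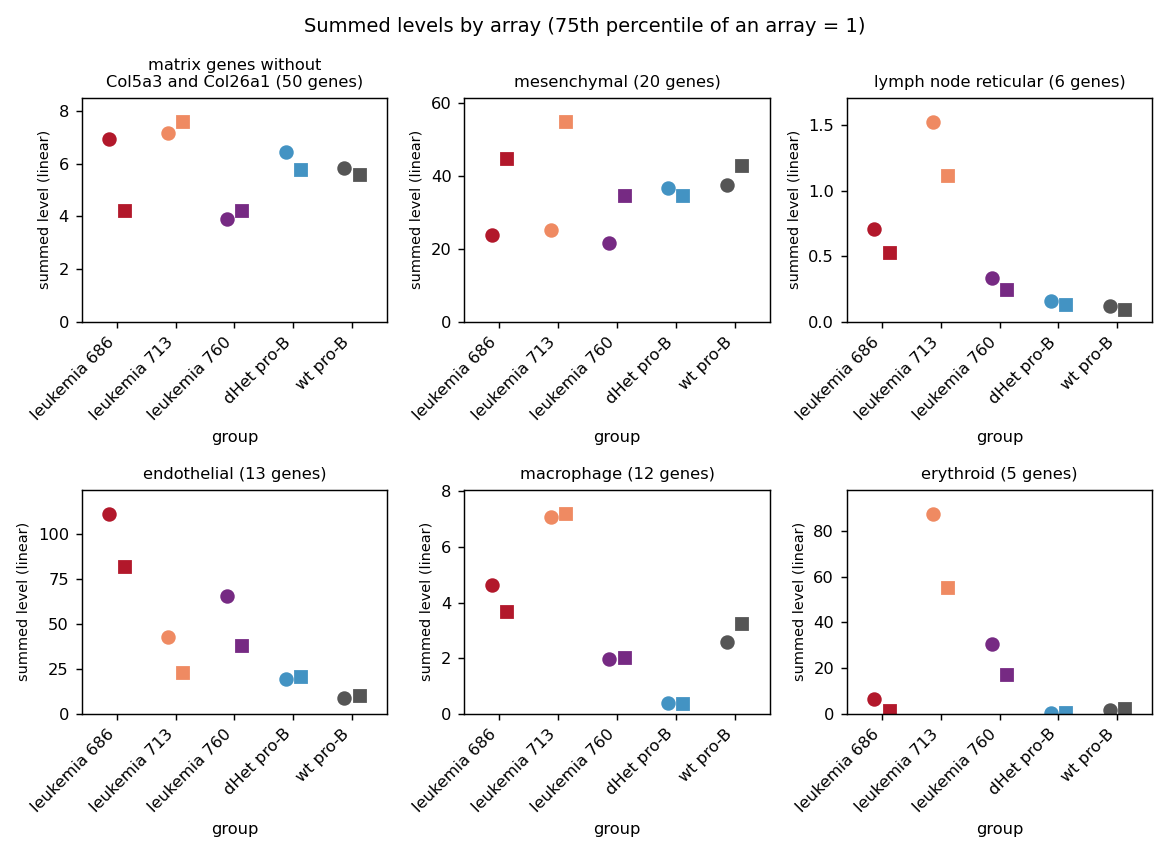
Summed linear level on each array (75th percentile of the array = 1) of the matrix genes without Col5a3, Col26a1 and Col4a3bp and of 5 marker lists, by group, undetected spots included, with circles for replicate 1 and squares for replicate 2. The matrix sum without these genes is highest in leukemia 713 (7.16 and 7.58), where the reticular, macrophage and erythroid sums are highest too. With Col26a1 kept, which is not drawn, leukemia 713 is the lowest of the leukemias (7.86 and 7.95).

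Other parts of the matrix pathway were read in the same fits. Of 27 genes that build collagen, 13 were tested. In the leukemias 3 were higher and 2 lower than in dHet pro-B cells, and 4 were higher and 2 lower than in wt pro-B cells. Among all tested genes 21.7% and 24.4% were higher and lower against dHet, and 31.3% and 27.5% against wt pro-B cells. P4hb, the subunit of prolyl hydroxylase that doubles as a disulfide isomerase, was higher by 1.18 ± 0.11 against dHet and 1.499 ± 0.11 against wt pro-B cells (limma adjusted p = 0.00115 and 0.000358). Crtap, which forms a complex that modifies prolines, was higher by 1.29 ± 0.17 and 2.18 ± 0.17 (limma adjusted p = 0.0028 and 0.000392). Ppib, a prolyl isomerase of the same complex, was higher by 0.68 ± 0.15 and 1.27 ± 0.15 (limma adjusted p = 0.0158 and 0.00132). Bmp1, the protease that trims procollagen, was lower, with changes of -1.08 ± 0.18 and -1.41 ± 0.18 (limma adjusted p = 0.0054 and 0.00145), detected on 3 of 6 leukemia arrays. With undetected spots at the lowest detected level these were -0.59 and -0.92.

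Among matrix receptors, 12 of 18 were tested, with 3 higher and 4 lower in the leukemias than in dHet pro-B cells and 2 higher and 4 lower than in wt pro-B cells, beside the same shares of all genes. Itga4, the integrin chain of VLA-4, which binds fibronectin and Vcam1, was lower in the leukemias than in dHet pro-B cells (-2.70 ± 0.30, limma adjusted p = 0.00179). Its mean was 6.43 in dHet pro-B cells, against 4.28 in wt pro-B cells (2.15 ± 0.38, limma adjusted p = 0.00518). Ddr1, a receptor kinase for fibrillar collagen, was detected in wt pro-B cells alone. It was at least 6.69-fold lower in dHet pro-B cells (limma adjusted p = 0.00141), and in the leukemias its change was -4.10 ± 0.28 (limma adjusted p = 0.000327), or -2.54 with undetected spots at the lowest detected level. Lair1, an inhibitory collagen receptor, was undetected in dHet pro-B cells and at least 31.9-fold lower there than in wt pro-B cells (limma adjusted p = 0.000446), and against wt pro-B cells it was lower in the leukemias too (-2.40 ± 0.60, limma adjusted p = 0.0173). Neutrophil and macrophage markers were also lower in dHet than in wt pro-B cells, as given above, and the part of such cells in the Lair1 values was not tested. Cd44, which binds hyaluronan, was higher in leukemia 713 than in the other leukemias (4.86 ± 0.46, limma adjusted p = 0.00105).

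Of 14 basement membrane genes 7 were tested, and 3 were higher and 1 lower in dHet than in wt pro-B cells (16.7% and 14.8% of all tested genes). Lamb3, a laminin chain, was higher by 2.83 ± 0.19 (limma adjusted p = 0.0001) and Nid1, which links laminin to type IV collagen, lower, with a change of -3.93 ± 0.54 (limma adjusted p = 0.00187). In leukemia 713, 4 of these 7 were higher and 1 lower (8.88% and 6.48% of all tested genes), led by Nid2 (2.91 ± 0.28, limma adjusted p = 0.0011). Of 28 other matrix glycoproteins 14 were tested. Ltbp2, a microfibril protein, was the largest change among them in leukemia 713 (5.97 ± 0.62, limma adjusted p = 0.00128), and Tgfbi, a collagen-binding adhesive protein, in the leukemias against dHet pro-B cells, where it was undetected (at least 22.6-fold, limma adjusted p = 0.0248). Of 19 genes of matrix degradation 7 were tested, with 2 higher and 1 lower in the leukemias than in dHet pro-B cells. Against wt pro-B cells 3 were higher and 2 lower, beside the shares of all genes given above. Mmp14, a membrane-bound collagenase, was higher by 1.81 ± 0.37 against dHet and 1.52 ± 0.37 against wt pro-B cells (limma adjusted p = 0.0115 and 0.0153). The lower genes against wt pro-B cells were Mmp8 and Timp2 (-3.256 ± 0.763 and -2.965 ± 0.752, limma adjusted p = 0.0135 and 0.0178). Of 12 proteoglycan genes 2 were tested, and Srgn, serglycin of blood cell granules, was lower in the leukemias than in dHet pro-B cells (-1.01 ± 0.22, limma adjusted p = 0.0145).

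Col18a1, a basement membrane collagen whose end fragment is endostatin, read -3.56 and -2.63 in leukemia 686, -2.34 and -2.24 in leukemia 713, -2.14 and -2.30 in leukemia 760, -2.46 and -2.34 in dHet pro-B cells and -3.02 and -2.70 in wt pro-B cells, and passed in no comparison. Col4a1, the common chain of basement membranes, was detected on both arrays of leukemia 713 and of dHet pro-B cells, at -3.20 and -3.69 in the first and -3.21 and -3.28 in the second, and passed nowhere either. Its partner Col4a2, encoded beside it in the genome, was detected on replicate 1 of leukemia 686 alone. Col4a3bp read 2.61 and 2.43 in leukemia 686, 3.17 and 2.83 in leukemia 713, 2.80 and 2.49 in leukemia 760, 2.91 and 2.92 in dHet pro-B cells and 2.64 and 2.80 in wt pro-B cells, and its main probe passed in no comparison. Of its other probes 2 were lower in the leukemias, with changes of -1.04 ± 0.16 and -1.66 ± 0.38 against dHet and -1.56 ± 0.16 and -1.33 ± 0.38 against wt pro-B cells (limma adjusted p from 0.00076 to 0.026). Over the 5 group means, the genes whose levels were most like the mean of the 22 tested members were Atl2, Dnajc25, Cox16, Trpv4 and Capn2, with Pearson r from 0.989 to 0.995.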

How the data were processed

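Total RNA of 10 samples was measured on one-colour Agilent arrays. Per the file headers, the deposited intensity values were made by Feature Extraction 10.5.1.1 on mm9, with background subtraction and detrending within each array, while the submitters' processing notes name version 9.1. A value table deposited by the authors gives log2 values for 41267 probes, 41174 of them matched here. Its normalization is not given in the sources used here, and it served as an alternative.

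Outlier and control spots were left out and spots of a probe averaged, except that 211 probes with only outlier spots on some array kept their average. The log2 processed signal minus the 75th percentile of the array was the level. No spot was saturated. Genes entered the test when both arrays of 1 or more of the 5 groups had their brightest probe well above background. limma 3.58.1 in R 4.3.3 (with the package data.table at version 1.17.8) fitted 7 samples (3 means of a mouse, 2 dHet and 2 wt pro-B arrays, 4 residual degrees of freedom) for the leukemias against pro-B cells. It fitted 10 arrays in 5 groups (5 residual degrees of freedom) for the other comparisons. These share arrays: the pro-B arrays serve in several contrasts. P-values were two-sided and adjusted by Benjamini-Hochberg over 14438 genes at a threshold of 0.05. Tables and figures used Python 3.11.15 with pandas 2.3.3 and numpy 2.4.6. The fit was tested on simulated data.

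The members, lists and comparisons were chosen with earlier results of these data known. Named were members detected on both arrays of a group, with values on every array for the 12 with the highest group mean and for genes a result turned on, and up to 4 called genes per other list. A planned count of glycine repeats in proteins was replaced by glycine codons in probes. Same-numbered arrays deviated together between leukemias (r from 0.443 to 0.633), which shared slides, but not with pro-B arrays (r from -0.031 to 0.08), so the numbers were not used as pairs. The number of arrays limits the precision.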

Additional observations from a re-analysis of the deposited data

Results flagged for a closer look

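Tests of single leukemias against the other 2 separated several matrix genes. In leukemia 713, Fn1 (5.04), Col27a1 (3.33), Col14a1 (2.73), Dcn (2.20) and Col11a2 (1.01) were higher and Col26a1 (-3.16) was lower, on the log2 scale. In leukemia 760, Col26a1 was higher (1.93) and Col27a1 lower (-4.38). In leukemia 686, Col26a1 was higher (1.23) and Col11a2 lower (-0.96).

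Probes that do not represent their gene were bright on 1 array alone. The second probe of Sparc read -0.07 on replicate 1 of leukemia 686, where the next highest array was at -3.98. The other probe of Bgn read -1.06 on replicate 1 of leukemia 760, with the next at -3.81, and that of Col1a2 read -1.49 on the same array. A probe of Col14a1 read -1.04 on replicate 2 of wt pro-B, with the next at -4.36, and a probe of Col4a6 read -1.88 on replicate 2 of leukemia 686, with the next at -4.18. In each case the replicate array of the same group lacked the signal.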

How the results depend on the processing

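Over 27 alternatives, 38 called results of members were kept in 716 instances, lost in 220 and turned in 3: Col9a2 against dHet pro-B to 0.21 and Bgn against wt pro-B to 0.33 with undetected spots at the lowest detected level, and Dcn in leukemia 760 to 0.27 with normexp. Col5a3 in both comparisons with wt pro-B, Col26a1 and Col7a1 in the leukemias against wt pro-B and Col26a1 in leukemia 713 lost no call. The use of scan day 2 alone, and the rule counting calls only where a compared side was detected on all its arrays, were chosen after seeing the data. What changed the counts was not tested. Levels near background limit most dim members.

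Counts of members higher (main 1) and lower (8) in leukemias against dHet pro-B moved as follows. The higher count was 2 with array-median scaling, quantile normalization, arrays as replicates, slide as a random block, scan day as a block or without leukemia 713, 3 without leukemia 760, and 0 without leukemia 686 or on scan day 2 alone. The lower count was 0 with normexp, 4 in the authors' value table or with arrays as replicates, 2 with undetected spots at the lowest detected level or slide as a random block, and 5 on scan day 2 alone. Leaving out 1 array gave 0 to 3 higher and 3 to 9 lower.

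In leukemias against wt pro-B (3 and 8), the higher count was 1 with normexp or scaling on probes all arrays detected, and 5 with array-median scaling or arrays as replicates. The lower count was 2 with normexp, the authors' value table or undetected spots at the lowest detected level, 4 with array-median scaling or quantile normalization, 3 with detection on at least 5 arrays or slide as a random block, and 5 on scan day 2 alone. Leaving out 1 array gave 1 to 4 higher and 5 to 9 lower.

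In dHet against wt pro-B (4 and 2), the higher count was 0 with normexp, 2 in the authors' value table or with the mean of all kept probes, 7 with slide as a random block and 8 on scan day 2 alone. The lower count was 1 with normexp or detection on at least 5 arrays, 5 with slide as a random block or scan day 2 alone, and 4 with scan day as a block. Leaving out 1 array gave 2 to 5 higher and 2 to 3 lower.

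In leukemia 686 (1 and 1), the higher count was 0 with normexp, array-median scaling, no filter or undetected spots at the lowest detected level, and 2 with slide as a random block or scan day as a block. The lower count was 0 with normexp, scaling on probes all arrays detected, no filter or the mean of all kept probes, 2 in the authors' value table, 3 with array-median scaling or scan day as a block, 4 with quantile normalization or slide as a random block, and 6 on scan day 2 alone. In leukemia 713 (5 and 1), the higher count was 0 with normexp, 3 with no filter or undetected spots at the lowest detected level, 2 with detection on at least 5 arrays, and 9 with slide as a random block, scan day as a block or scan day 2 alone. In leukemia 760 (1 and 3), normexp gave 0 and 0, and the lower count was 1 with undetected spots at the lowest detected level, detection on at least 5 arrays or detection on all arrays of 1 side, and 5 on scan day 2 alone. Leaving out 1 array gave 0 to 2 higher and 0 to 3 lower in leukemia 686, 3 to 7 and 1 to 1 in 713, and 1 to 2 and 2 to 5 in 760.

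The fit with the replicate number as a block (replicate block) gave 3 members higher against dHet pro-B, 5 higher against wt pro-B and 2 higher in leukemia 686.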
